A study of Homo sapiens with 4 samples.

Results

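The 37 genes of mitochondrial DNA were followed in MDA-MB-231 cells after depletion of AXL. Their rows were those of the deposited table whose gene symbol starts with MT-, which gave 37 of 63677 genes, namely 13 mRNAs, 2 rRNAs and 22 tRNAs. MDA-MB-231 is a cell line established from a human triple-negative breast cancer (TNBC), and AXL belongs to the TAM receptor tyrosine kinases. Cells of the siCt group were transfected with a control siRNA and cells of the siAxl group with a pool of siRNAs specific to AXL, so all cells went through transfection. Total RNA was extracted and 2 libraries were sequenced in each group, siCt 1 and siCt 2, siAxl 1 and siAxl 2. Whether poly(A) RNA was selected or rRNA depleted is not given in the sources used here, so levels of mRNA, rRNA and tRNA beside each other, and of MT-ND6 beside the other mRNAs, may differ from those in the cells. The labels do not say whether libraries of a group came from separate cultures or what the library number marks. The p-values of siAxl against siCt thus measure the spread between these libraries, which may be technical. Those of the library number measure how far its difference disagrees between the 2 groups. Each member was compared between siAxl and siCt and between libraries numbered 2 and 1.

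Mitochondrial DNA is a small circle present in many copies per cell, and it is transcribed from both strands into long precursor RNAs. Most of its mRNAs and both rRNAs are flanked by tRNAs, and removal of the tRNAs releases the RNAs between them. The mRNAs encode subunits of respiratory chain complexes I, III and IV and of the ATP synthase, complex V, while the rRNAs and tRNAs serve the mitochondrial ribosome. MT-ND6 is the only mRNA made from the opposite strand to the other mRNAs, and it lacks the poly(A) tail that they carry.

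Sequences are shown for the tRNAs that had reads in all 4 libraries and for the largest overlap between members, where a read may belong to either gene. They are the GENCODE release 29 sequences on the RNA-coding strand, written with T for U. MT-TV, the valine tRNA, lies between MT-RNR1 and MT-RNR2, and MT-TL1, a leucine tRNA, follows MT-RNR2. The end of MT-ATP8 overlaps the start of MT-ATP6 by 46 bases, and capitals mark the start codon of MT-ATP6.
MT-TV: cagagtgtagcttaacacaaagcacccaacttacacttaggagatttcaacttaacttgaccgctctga
MT-TL1: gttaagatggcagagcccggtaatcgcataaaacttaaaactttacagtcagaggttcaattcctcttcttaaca
MT-ATP8 and MT-ATP6 overlap: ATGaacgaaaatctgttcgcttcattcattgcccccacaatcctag
MT-ND4L and MT-ND4 overlap by a further 7 bases and MT-ATP6 and MT-CO3 by 1, so counts of these neighbours depend in part on how shared reads were treated, which is not given in the sources used here.

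Between 39574387 and 44585773 reads per library were counted over all genes, and the normalized count of a gene is its reads divided by the size factor of the library. AXL had normalized counts of 29189 and 30617 in siCt 1 and 2, against 8658 and 7141 in siAxl 1 and 2. Both siAxl libraries were far below both siCt libraries, with a log2 difference of -1.93 (SE 0.092, adjusted p = 0.000585 in limma). Of the markers of the cell line, VIM (86751 to 99296) and CD44 (33968 to 36518) were abundant, ESR1 had 1 to 3 reads per library, PGR 0 to 2 and CDH1 23 to 94. ERBB2 was not low, with normalized counts of 2949 to 3680, at the 85.4 percentile of protein-coding genes by reads.

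The share of reads on mitochondrial RNA differed between library numbers more than between siRNAs. The 13 mRNAs took 3.21% of the reads in siCt 1 (95% exact Clopper-Pearson interval 3.203 to 3.213) and 1.79% in siCt 2 (1.781 to 1.789). They took 3.21% in siAxl 1 (3.202 to 3.213) and 1.91% in siAxl 2 (1.905 to 1.913). Thus the number 1 libraries of the 2 groups lay together, and both number 2 libraries lay far below them. The intervals cover counting error only. In bulk RNA, fewer cells with these transcripts and fewer transcripts per cell cannot be told apart.

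The rRNAs showed a smaller difference in the same direction. They took 0.494% and 0.329% of the reads in siCt 1 and 2, and 0.575% and 0.374% in siAxl 1 and 2. The mRNA reads exceeded the rRNA reads 6.50-fold and 5.43-fold in siCt 1 and 2, and 5.58-fold and 5.10-fold in siAxl 1 and 2. The ratio was thus highest in siCt 1 and lower in number 2 than in number 1 within both groups. The 22 tRNAs together had 15 and 11 reads in siCt 1 and 2, and 12 and 14 in siAxl 1 and 2, a spread of a few reads with no order by number or by siRNA. With 2 libraries in a group an exact permutation test of such a share cannot go below a two-sided p of 0.333, and none was run.

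**Figure D1:**
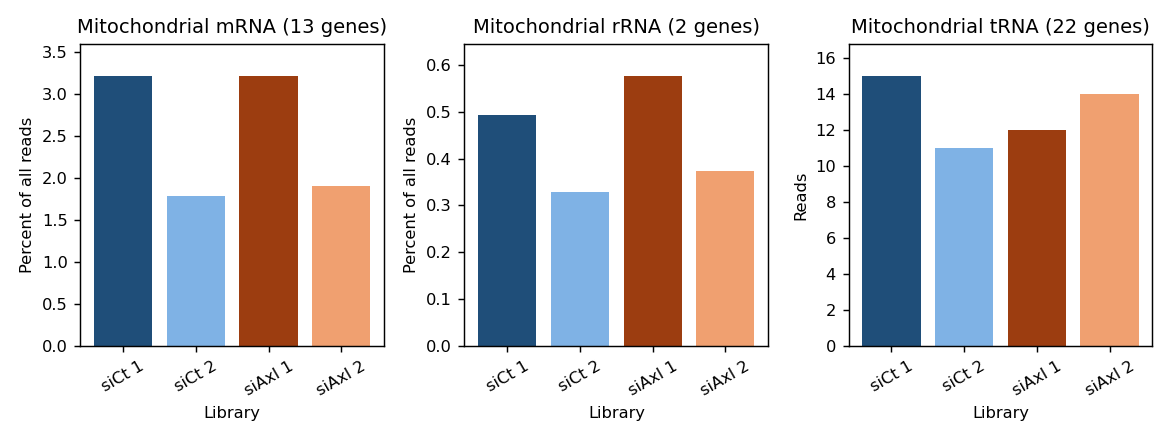
Bars give, for each of the 4 libraries, the percent of all reads on the 13 mitochondrial mRNAs (left) and on the 2 rRNAs (middle), and the number of reads on the 22 tRNAs (right). The mRNA share is 3.21% in both number 1 libraries and 1.79% and 1.91% in the number 2 libraries.

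All 13 mRNAs and both rRNAs, 15 of the 37 members, and none of the tRNAs passed the filter on low counts, and they were tested among 16064 genes. A gene was called where its adjusted p in limma (Benjamini-Hochberg over the tested genes) was under 0.05, and log2 differences are on the log2(normalized count + 1) scale. Between library numbers, with condition in the model, 14 of the 15 members were called and all 14 were lower in number 2. Over all genes tested, 6.54% were called lower in number 2 and 7.96% higher. Of the calls over all genes 54.9% were higher, against 30.8% when libraries were scaled by reads outside mitochondrial genes, 38.7% with upper quartile, 43.0% with TMM and 44.4% with plain sum scaling. The members' count of 14 was the same under these scalings. All 14 had both number 2 libraries below both number 1 libraries, a pattern that 13.6% of all genes tested showed. The median log2 difference of the 15 members was -0.77, against 0.017 for all genes tested.

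This comparison leaves 1 residual degree of freedom per gene, so its p-values rest on a spread shared across genes. That spread is how far the difference between numbers disagrees between siCt and siAxl. With number alone in the model and condition left out, 0 of the 15 members and 0 of the 16064 genes were called by limma, although 14 members and 612 genes had an unadjusted p under 0.05, and with condition in the model edgeR and DESeq2 called 14 and 13 members.

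Complex I, which takes electrons from NADH, has 7 subunits encoded in mitochondrial DNA. MT-ND4, the member with the most reads, had normalized counts of 298223 and 167260 in siCt 1 and 2, and of 298946 and 173959 in siAxl 1 and 2. It was lower in number 2 by a log2 difference of -0.81 (SE 0.029, adjusted p = 3.14e-25 in limma), and the 2 number 1 values differed by less than the 2 number 2 values. MT-ND4L, its overlapping neighbour, gave -0.81, and MT-ND5 gave -0.80, so these 3 genes, next to each other apart from tRNAs, fell by close amounts.

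MT-ND1 had normalized counts of 85258 and 46374 in siCt 1 and 2, and 79014 and 49633 in siAxl 1 and 2, with a log2 difference between numbers of -0.77. MT-ND2 had 88087 and 51546 in siCt, and 81864 and 54676 in siAxl, with -0.68. In both genes the difference between numbers was smaller in siAxl (-0.67 for MT-ND1, -0.58 for MT-ND2) than in siCt (-0.88 and -0.77), and whether it differs between groups was not tested. MT-ND3 changed least of the 12 mRNAs that fell, from 20002 to 14033 in siCt and from 20626 to 15295 in siAxl (log2 difference -0.47, SE 0.032, adjusted p = 2.03e-15 in limma).

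MT-ND6 stood apart from the other complex I subunits. Its normalized counts were 1379 and 1580 in siCt 1 and 2, and 1238 and 1301 in siAxl 1 and 2. The number 2 library was the higher one in each group, the values of the numbers overlapped, and the log2 difference of 0.13 (SE 0.053, adjusted p = 0.0869 in limma) did not pass the test. It was between 0.096 and 0.12 under the 4 other scalings and was not called under any of them. Whether reads were counted by strand is not given in the sources used here, so reads of the opposite strand over MT-ND6 cannot be told apart from its own.

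Complex III passes electrons to cytochrome c, and MT-CYB, cytochrome b, is its only subunit encoded in mitochondrial DNA. MT-CYB had normalized counts of 79791 and 45333 in siCt 1 and 2 and of 88941 and 51872 in siAxl 1 and 2. Both number 2 libraries were below both number 1 libraries (log2 difference -0.80, SE 0.029, adjusted p = 7.61e-25 in limma).

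Complex IV, cytochrome c oxidase, has its 3 catalytic core subunits encoded in mitochondrial DNA. MT-CO1 had normalized counts of 224799 and 123095 in siCt 1 and 2, and of 225934 and 129250 in siAxl 1 and 2, and it had the most negative difference of the members (log2 -0.84, SE 0.029, adjusted p = 2.15e-25 in limma). MT-CO2 had 164120 and 94949 in siCt and 180085 and 114996 in siAxl (log2 -0.72). MT-CO3 had 128662 and 70595 in siCt and 131174 and 79927 in siAxl (log2 -0.79). In all 3 genes the 2 number 1 libraries lay above the 2 number 2 libraries, and siAxl 2 lay above siCt 2.

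Complex V makes ATP from the proton gradient. MT-ATP6 had normalized counts of 88180 and 46938 in siCt 1 and 2, and of 89232 and 52875 in siAxl 1 and 2 (log2 difference between numbers -0.83). MT-ATP8 had 27211 and 16102 in siCt, and 29360 and 17205 in siAxl (log2 -0.76). The differences of these overlapping genes were close to each other and to those of most complex I and IV subunits.

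The 2 rRNAs did not fall alike. MT-RNR2, the large subunit rRNA, had normalized counts of 191743 and 124768 in siCt 1 and 2 and of 227992 and 147992 in siAxl 1 and 2, with a log2 difference between numbers of -0.62 (SE 0.028, adjusted p = 1.43e-21 in limma). MT-RNR1, the small subunit rRNA, had 17927 and 16108 in siCt and 21075 and 15841 in siAxl, with -0.28 (SE 0.037, adjusted p = 1.58e-07 in limma). For MT-RNR1 the difference was -0.15 in siCt and -0.41 in siAxl, while for MT-RNR2 it was -0.62 in both. The call of MT-RNR1 was lost in DESeq2 (adjusted p = 0.385) and when all genes with at least 1 read were tested (adjusted p = 0.134).

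**Figure D2:**
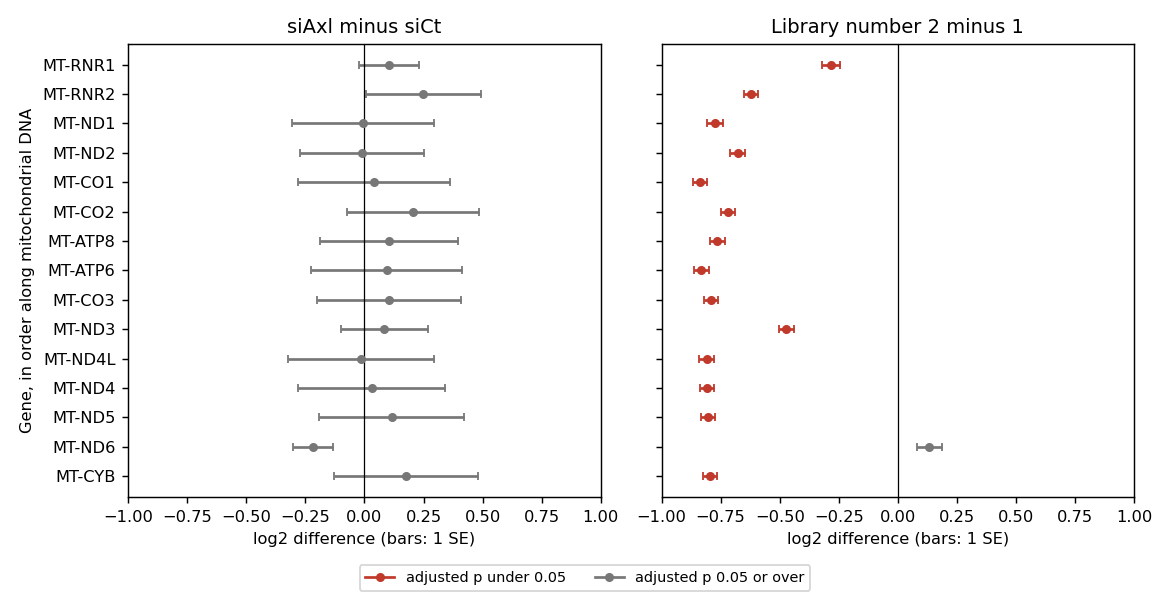
Points give the log2 difference of each of the 15 tested members for siAxl minus siCt (left) and for library number 2 minus 1 (right), in gene order, with bars of 1 SE from limma and red for an adjusted p under 0.05. No member is red on the left, and 14 are red on the right, with MT-ND6 at 0.13 as the exception.

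The 12 mRNAs other than MT-ND6 all fell, with log2 differences from -0.84 to -0.47 and a median of -0.79. The smallest falls were those of MT-ND3 (-0.47) and MT-ND2 (-0.68). Libraries numbered 1 exceeded libraries numbered 2 in these genes by 1.43-fold to 1.88-fold in siCt and by 1.35-fold to 1.75-fold in siAxl. Of the 16064 genes tested, 3.98% had a difference as low as or lower than that of MT-ND3, the least of the 12. MT-CO1 ranked 102 from the lowest of all genes tested, MT-RNR1 1569 and MT-ND6 13524. Over the 15 members the difference had a Pearson r of -0.27 with gene length and of -0.28 with GC content (Spearman -0.23 and -0.39). Over the 12 mRNAs without MT-ND6 these were -0.41 and -0.54 (Spearman -0.33 and -0.27). Both are descriptions over genes that share the same libraries.

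**Figure D3:**
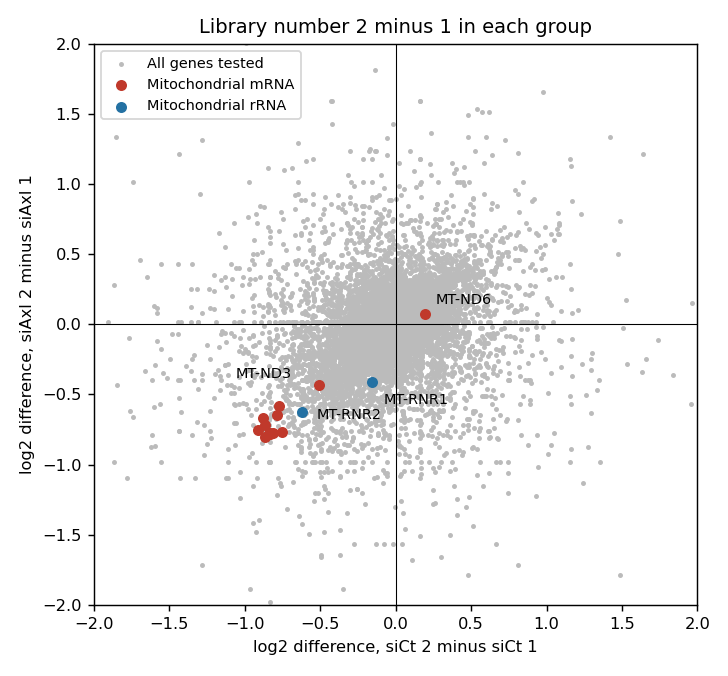
Each point is a gene, with the log2 difference of siCt 2 minus siCt 1 on the horizontal axis and of siAxl 2 minus siAxl 1 on the vertical axis, for all 16064 genes tested (12 lie outside the axes) and for the mitochondrial mRNAs and rRNAs in colour. Of the mitochondrial genes 14 lie in the lower left, MT-RNR1 nearest to the centre, and MT-ND6 lies in the upper right at 0.20 and 0.071.

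Nuclear RNAs also moved with the library number, and their part in the fall of the mitochondrial RNAs was not tested. The following genes were chosen after their values were seen. NEAT1, a nuclear long noncoding RNA, had normalized counts of 33826 and 23490 in siCt 1 and 2 and of 33965 and 21572 in siAxl 1 and 2 (log2 difference between numbers -0.59). MALAT1, another nuclear RNA, gave -0.56, with 10574 and 8412 in siCt 1 and 2 and 10586 and 6091 in siAxl 1 and 2. Its fall was thus larger in siAxl than in siCt. SYNE2 and DST, which encode very large proteins of the nuclear envelope and the cytoskeleton, were higher in number 2, by 0.81 and 0.57. The median longest transcript in GENCODE release 29 was 6101 bases for genes called higher in number 2 (1261 of 1278 with a length) and 3674 for those called lower (1012 of 1037), against 3327 for all genes tested other than the members. The mitochondrial mRNAs have lengths of 207 to 1812 bases, and whether length bears on their fall was not tested.

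Between siAxl and siCt, with condition alone in the model, no member was called, with 0 of 15 by limma, by edgeR and by DESeq2. In limma 1 member, MT-ND6, had an unadjusted p under 0.05. Over all genes tested, 18.7% were called, 10.8% higher in siAxl and 7.91% lower. Of these calls 57.7% were higher, against 46.8% with plain sum scaling and 45.5% when libraries were scaled by reads outside mitochondrial genes. The log2 differences of the 15 members ran from -0.22 to 0.25 with a median of 0.094, against -0.0022 for all genes tested. Their standard errors were 0.083 for MT-ND6 and 0.13 to 0.32 for the others. The siCt libraries alone differed 1.43-fold to 1.88-fold in the 12 mRNAs other than MT-ND6. These standard errors include the difference between library numbers. With the number added as a replicate block, limma called 10 of 15 members (9 higher, 1 lower) and 7310 of 16064 genes. The labels do not say that a number marks a shared culture.

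With condition alone in the model, the count of 0 also changed when a siCt library was left out. Without siCt 1, 14 of the 15 members were called, 13 of them higher in siAxl and MT-ND6 lower, while 24.3% of all genes were called. Without siCt 2, MT-ND1, MT-ND2 and MT-ND4L were called, all lower in siAxl, while 15.4% of all genes were called. In these fits the lone siCt library is assumed to vary as the 2 siAxl libraries do, and the spread between siCt libraries does not enter. MT-ND1, MT-ND2 and MT-ND4L were called in opposite directions according to which siCt library was left out. Without siAxl 1 or without siAxl 2, 0 members were called, and 0 and 4 had an unadjusted p under 0.05.

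Of the 15 tested members, MT-ND6 alone had siAxl values that were both lower than either siCt value, a pattern that 30.5% of all genes tested showed. Its log2 difference was -0.22 (SE 0.083, unadjusted p = 0.0344, adjusted p = 0.114 in limma), with siAxl over siCt ratios of 0.898 in number 1 and 0.824 in number 2. Without siCt 1 it was called (log2 -0.32, adjusted p = 0.0133 in limma).

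Compared within a library number, the siAxl values of most mRNAs lay close to those of siCt. In number 1 the siAxl over siCt ratio of the 12 mRNAs other than MT-ND6 was 0.927 to 1.11, and in number 2 it was 1.01 to 1.21. MT-RNR2 was higher in siAxl within both numbers, with ratios of 1.19 and 1.19, and its log2 difference was 0.25 (SE 0.24, adjusted p = 0.527 in limma). MT-CO2 had ratios of 1.10 and 1.21 (log2 0.21, SE 0.28, adjusted p = 0.657 in limma), and MT-CYB 1.11 and 1.14 (log2 0.18). In the model with condition alone, the difference of these genes between siRNAs was smaller than its standard error or about equal to it. That standard error includes the difference between library numbers.

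Per kb of gene, the members kept much the same order in all libraries. MT-CO2 had the highest mean level, 202540 normalized counts per kb, followed by MT-ND4 with 170244, MT-CO3 with 130854 and MT-CO1 with 113988. Each of these first 3 was above the next in all 4 libraries. MT-CO1 and MT-RNR2 (111048 per kb) changed places, each being higher in 2 libraries, and MT-RNR2 was above MT-ATP8 (108548 per kb) in 3 of 4. MT-ATP8, MT-ATP6 (101771), MT-ND4L (93382) and MT-ND1 (68065) followed in this order in all 4 libraries. Levels were divided by the whole gene length. MT-ATP8 shares 46 of its 207 bases with MT-ATP6, so the places of these genes may depend on how shared reads were treated. Reads on nuclear copies were not added.

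MT-ND1 and MT-ND2 (66260 per kb) were not separated, with MT-ND1 the higher in 2 libraries. MT-CYB had 58268 per kb, above MT-ND5 with 53902 in all 4 libraries, and MT-ND5 and MT-ND3 (50546 per kb) changed places. Last came MT-RNR1 with 18593 and MT-ND6 with 2618 per kb, each apart from its neighbours in all 4 libraries. MT-RNR2 exceeded MT-RNR1 per kb by 6.54-fold and 4.74-fold in siCt 1 and 2 and by 6.62-fold and 5.72-fold in siAxl 1 and 2 (both lie on the same strand, with MT-TV between them). MT-ND5 exceeded MT-ND6, its neighbour on the opposite strand, by 25.3-fold and 12.4-fold in siCt and by 29.9-fold and 16.7-fold in siAxl.

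**Figure D4:**
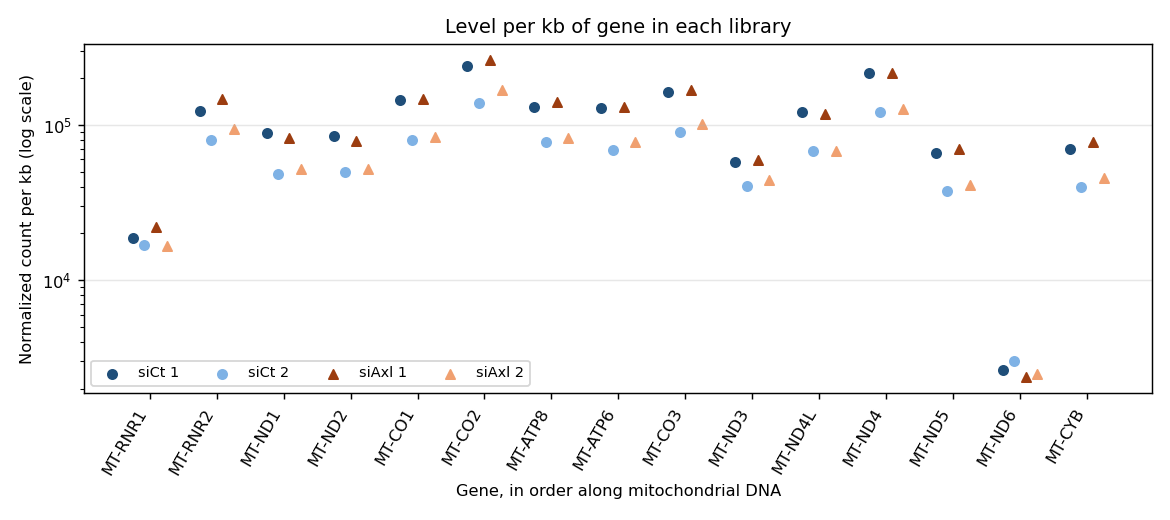
Points give normalized counts per kb of gene (log scale) for the 13 mRNAs and 2 rRNAs in the 4 libraries, in gene order. Number 1 libraries (dark) lie above number 2 libraries (light) in every gene except MT-ND6, which has the lowest level, with a mean of 2618 per kb.

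Summed by complex, the composition of the mRNA reads changed little, which does not depend on the scaling between libraries. The 7 complex I mRNAs took 47.7% and 48.1% of the mRNA reads in siCt 1 and 2 and 46.4% and 46.6% in siAxl 1 and 2. The 3 complex IV mRNAs took 37.7% to 38.8%, the 2 complex V mRNAs 8.24% to 8.54% and MT-CYB 5.86% to 6.40%.

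Of single genes, MT-ND4 took 20.8% to 21.9% of the mRNA reads, MT-CO1 15.5% to 16.5% and MT-CO2 12.05% to 13.8%. The shares did not overlap between groups in 6 of the 13 mRNAs, with MT-CO2, MT-CYB and MT-ND5 higher and MT-ND1, MT-ND4 and MT-ND4L lower in siAxl. Shares of 1 total depend on each other, so no test was made of them, and no share over other genes stands beside this count. In normalized counts, another measure, 30.5% of all genes tested had both siAxl libraries below both siCt libraries. In that direction alone the shares gave 3 of the 13 mRNAs, and no value over all genes stands beside the other direction. The count of 6 is not read as an effect of the siRNA. The share of MT-CO2 was 12.05% and 12.4% in siCt and 12.97% and 13.8% in siAxl. MT-ND3 moved with the number instead, with 1.47% and 1.83% in siCt 1 and 2 and 1.49% and 1.83% in siAxl 1 and 2. MT-ND6 took 0.101% and 0.206% in siCt and 0.0892% and 0.156% in siAxl, and was thus the higher in number 2 within both groups. Among the rRNA reads MT-RNR1 took 8.55% and 11.4% in siCt and 8.46% and 9.67% in siAxl.

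The tRNA genes, of 59 to 75 bases, were nearly absent from the counts, with 52 reads in all libraries out of 5179789 on the 37 genes. MT-TL1 had 8 reads in each siCt library, 7 in siAxl 1 and 5 in siAxl 2, and MT-TV had 3 and 1 in siCt 1 and 2 and 4 in each siAxl library. These 2, shown by sequence above, were the only tRNAs with reads in all 4 libraries. MT-TF, the phenylalanine tRNA before MT-RNR1, had 4 reads and MT-TT, the threonine tRNA, 2. The 3 tRNAs that border the rRNAs, MT-TF, MT-TV and MT-TL1, held 44 of the 52 reads. Even so, MT-TL1 had a mean of 93.5 normalized counts per kb beside 111048 for MT-RNR2.

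MT-TQ, MT-TA, MT-TC, MT-TK, MT-TE and MT-TP had 1 read each. The remaining 12 tRNAs, MT-TI, MT-TM, MT-TW, MT-TN, MT-TY, MT-TS1, MT-TD, MT-TG, MT-TR, MT-TH, MT-TS2 and MT-TL2, had 0 reads in every library. A count of 0 allows up to 3 reads, or 0.0673 to 0.0758 CPM in these libraries. At this depth no difference in a tRNA was detectable.

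Nuclear copies of mitochondrial genes were left by the transfer of mitochondrial DNA to chromosomes. The table lists 411 of them, 397 as pseudogenes and 14, all MTRNR2L genes, as protein-coding, with 40 having at least 1 read, and 4 copies held 99.1% of the 64888 reads on copies. MTATP6P1 had normalized counts of 7897 and 4432 in siCt 1 and 2 and of 8662 and 4831 in siAxl 1 and 2, and it was lower in number 2 (log2 difference -0.84, SE 0.036, adjusted p = 1.76e-22 in limma), as MT-ATP6 was. MTCO1P12 (log2 -0.82), MTND2P28 (-0.69) and MTND4P12 (-0.80) also fell close to their counterparts MT-CO1, MT-ND2 and MT-ND4. MTCO2P12, the fifth by reads with 216, gave -1.02 (SE 0.21).

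The normalized counts of MTATP6P1 were 8.96% to 9.71% of those of MT-ATP6, and those of MTCO1P12 3.10% to 3.31% of those of MT-CO1. In GENCODE release 29 the aligned bases of copy and gene differ at 10 of 681 positions for MTATP6P1 and at 20 of 1542 for MTCO1P12, an identity of 98.5% and 98.7%. Reads of a mitochondrial gene and of so close a copy cannot be told apart with confidence in these counts. With reads on copies added to the mRNA reads, the log2 ratio of the mRNA share between numbers was -0.80, the same as without them. The copies took 0.0478% and 0.0267% of the reads in siCt 1 and 2, and 0.0472% and 0.0272% in siAxl 1 and 2. So small a part could hardly move this ratio, which therefore does not settle how reads were divided between genes and copies.

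The nuclear genes that serve mitochondrial RNA and DNA were described from a list of 59, all of them tested. Between siAxl and siCt 1 of them was called higher (1.69% of the list, beside 10.8% of all genes) and 9 lower (15.3%, beside 7.91%). The median log2 difference was -0.079, against -0.0022 for all genes tested. The counts were unequal between settings, and so were those over all genes. Under plain sum scaling 14 were lower, beside 1745 of 16064 genes. When all genes with at least 1 read were tested 2 were lower, beside 340 of 27108 genes. The count also changed when a siAxl library was left out.

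TFAM, which packages mitochondrial DNA and starts its transcription, had normalized counts of 4395 and 4874 in siCt 1 and 2 and of 3325 and 3581 in siAxl 1 and 2. It was lower in siAxl (log2 -0.42, SE 0.072, adjusted p = 0.0103 in limma), without overlap. PNPT1, a mitochondrial RNA exonuclease, fell from 2154 and 2146 to 1608 and 1696 (log2 -0.38), and DNA2, a helicase and nuclease of nuclear and mitochondrial DNA, from 1486 and 1569 to 953 and 952 (log2 -0.68). These 3 calls held without each single library, and that of TFAM was lost when all genes with at least 1 read were tested (adjusted p = 0.0521).

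SLIRP, an RNA-binding protein that stabilises mitochondrial mRNAs, was lower (log2 -0.39), and its call was lost without siAxl 1. MTERFD3, of the mitochondrial transcription termination factor family, was lower (log2 -0.38), with its call lost without either siAxl library. SUPV3L1, the helicase partner of PNPT1, was lower (log2 -0.24), but its call was lost without any 1 of the 4 libraries. The gene called higher was REXO2, an exonuclease of short RNAs (log2 0.23, SE 0.054, adjusted p = 0.0277 in limma), and this call was lost without siCt 2, siAxl 1 or siAxl 2. Between library numbers, 2 of the 59 were called higher (3.39%, beside 7.96% of all genes) and 7 lower (11.9%, beside 6.54%), with a median of -0.0075 against 0.017 for all genes tested. Under TMM or plain sum scaling 1 was called higher and 5 lower. Over all 16064 genes, 757 were called higher and 1005 lower under TMM, and 801 and 1004 under plain sum scaling.

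The nuclear subunits of complexes I, III, IV and V, which assemble with the mitochondrially encoded ones, formed a list of 74, all tested. Between siAxl and siCt, 1 was called higher (1.35% of the list, beside 10.8% of all genes) and 8 lower (10.8%, beside 7.91%). The median log2 difference was -0.069. When all genes with at least 1 read were tested 2 were called lower, beside 340 of 27108 genes. The count of lower calls also changed when a siAxl library was left out. ATP5G1, which encodes the c subunit of complex V, had normalized counts of 2365 and 2359 in siCt 1 and 2 and of 1741 and 1830 in siAxl 1 and 2 (log2 -0.40, SE 0.060, adjusted p = 0.00694 in limma). Its call held without each single library.

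NDUFA12 (log2 -0.37), NDUFV2 (-0.40) and NDUFA8 (-0.35) of complex I, CYC1 (-0.30), the cytochrome c1 of complex III, and COX5A (-0.29) of complex IV were lower in siAxl. The calls of all 5 were lost without siAxl 1, and those of NDUFV2 and COX5A also without siAxl 2. UQCR10, a small subunit of complex III, was higher, with normalized counts of 1591 and 1614 in siCt and 1925 and 2149 in siAxl (log2 0.34, SE 0.072, adjusted p = 0.0208 in limma), and its call was lost without siAxl 2.

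Between library numbers the nuclear subunits did not follow the mitochondrial ones. Of the 74, 9 were called higher in number 2 by limma (12.2%, beside 7.96% of all genes), and 65 had a difference above 0, with a median of 0.065 against 0.017 for all genes tested. The 9 calls depended on the scaling, with 2 higher under each of the 4 other scalings and 1 lower under 3 of them. Over all 16064 genes, 623 to 801 were called higher and 1004 to 1398 lower under these 4 scalings. The median of the nuclear subunits stayed above 0 (0.027 to 0.050).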

How the data were processed

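RNA from MDA-MB-231 cells, 2 siCt and 2 siAxl libraries, was sequenced. Per the submitters' processing notes, the authors used CASAVA 1.8, TopHat2 2.0.10, HTSeq 0.5.3, DESeq2 1.4.5 and build GRCh37. The annotation release, strand setting and counting mode are not given in the sources used here. The deposited table holds 1 signal column per library, normalized counts made by the authors by dividing reads by the DESeq2 size factor. Its columns of the authors' log2 fold changes, test scores and p-values were not used. Division by the smallest step of a library gave whole reads for 100% of its deposited values (tolerance 0.01).

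Samples were grouped by their treatment labels. Genes passing filterByExpr (16064, leaving out 47613) were tested with limma 3.58.1 in R 4.3.3 (lmFit, then eBayes with trend) on log2(normalized count + 1). The model held condition alone for siAxl against siCt, and condition with library number for number 2 against 1. A call required a Benjamini-Hochberg adjusted p under 0.05 over all genes tested. The scripts were tested on simulated data. Alternatives were edgeR 4.0.16 and DESeq2 1.42.0 on recovered reads, other scalings, pseudocounts, thresholds, a wider filter, and each library left out. Depth was 39574387 to 44585773 reads per library.

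Because the table holds normalized counts, limma was the main test, as planned for that case. Lengths, overlaps and sequences were taken by Ensembl identifier from GENCODE release 29, which held all 37 members, and since it uses another build no coordinates are given. Named were AXL, all mitochondrial mRNAs and rRNAs, the 5 tRNAs with the most reads (ties at 1 read all named) and those at 0, up to 6 called members of each nuclear list per direction by adjusted p, and the 5 nuclear copies with the most reads. Nuclear copies were found by symbol (196) or by GENCODE name alone (215), the latter and the sum of copies with mRNAs being added after values were seen. The members and lists were chosen with earlier results of these data known.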

Additional observations from a re-analysis of the deposited data

Results flagged for a closer look

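In MT-ND1, MT-ND2, MT-ND4L and MT-RNR1 the difference between siAxl and siCt had opposite signs in the 2 library numbers, and this difference between numbers was not tested. MT-ND1, a complex I subunit, had a log2 difference of siAxl minus siCt of -0.11 among number 1 libraries and of 0.098 among number 2 libraries. MT-ND2 had -0.106 and 0.0851, and MT-ND4L had -0.0437 and 0.0124. MT-RNR1, the small subunit rRNA, went the other way, with 0.233 among number 1 and -0.0241 among number 2 libraries. Each value rests on 1 library per group.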

How the results depend on the processing

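Between siAxl and siCt, 3006 genes were called, with 859 at an adjusted p under 0.01, 1097 when all genes with at least 1 read were tested, and 1301 to 3900 when each library was left out. The count of mitochondrial genes called was 0 under each scaling, pseudocount, filter and tool tried, and 0 to 14 when each library was left out. With the library number as a replicate block, 7310 of 16064 genes were called (3737 higher, 3573 lower). Of the 15 mitochondrial genes tested, this block called 10 (9 higher, 1 lower). The labels do not say that a number marks a shared culture, and deviations of same-numbered libraries from their group means had a Pearson correlation across genes of 0.27. For the 59 factors for mitochondrial RNA and DNA, the block gave 4 higher and 25 lower, and for the 74 nuclear subunits 2 higher and 27 lower.

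Between library numbers, 2329 genes were called, with 472 in DESeq2, 1401 at an adjusted p under 0.01, 320 when all genes with at least 1 read were tested, and 0 with number alone, without condition, which also called 0 mitochondrial genes. With a library left out, no residual degree of freedom remains for this comparison, and the log2 ratio of the mRNA share of number 2 over 1 was -0.85 in siCt and -0.75 in siAxl.

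For the factors, 0 were called higher and 2 lower both at an adjusted p under 0.01 and with all genes with at least 1 read. Under plain sum scaling 14 were lower. Over all genes, 246 of 16064 were lower at an adjusted p under 0.01, 340 of 27108 with the wider filter and 1745 of 16064 under plain sum scaling. Leaving out each library gave 0 to 2 higher and 3 to 12 lower. For the nuclear subunits, 0 were called higher under the same 2 settings, 1 lower at an adjusted p under 0.01 and 2 lower with the wider filter. Leaving out each library gave 0 to 1 higher and 1 to 11 lower.

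MT-ND1 changed sign under TMM scaling (log2 0.0034). With each library left out, the log2 difference of siAxl minus siCt ran from -0.45 to 0.43 in MT-ND1, -0.40 to 0.38 in MT-ND2, -0.40 to 0.47 in MT-CO1, -0.19 to 0.60 in MT-CO2, -0.28 to 0.49 in MT-ATP8, -0.36 to 0.55 in MT-ATP6, -0.33 to 0.54 in MT-CO3, -0.17 to 0.34 in MT-ND3, -0.43 to 0.40 in MT-ND4L, -0.39 to 0.45 in MT-ND4, -0.30 to 0.53 in MT-ND5, -0.23 to 0.58 in MT-CYB, -0.10 to 0.31 in MT-RNR1 and -0.064 to 0.56 in MT-RNR2, and it changed sign in each. That of MT-ND6 stayed below 0 (-0.32 to -0.12). The cause was not tested.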
